A study of Mus musculus with 8 samples.

Results

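The hippocampus of T29-1 Cre and WT mice was compared for 8 genes of GABA handling and of the interneuron lineage. They are not all particular to interneurons, since Satb1 is also expressed by neurons of the neocortex. Gad1, Gad2 and Slc32a1 make GABA and load it into synaptic vesicles, and Lhx6, Dlx1, Dlx2, Dlx6 and Satb1 encode nuclear factors of the interneuron lineage. The genes were chosen by name, and each had 1 row among the 46078 rows of the deposited count table. All 8 were among the 15996 rows that passed a filter on low counts. T29-1 Cre mice were Cre+/- carriers of the transgene Tg(Camk2a-cre)T29-1Stl, in which Cre recombinase is driven by the promoter of Camk2a, a gene active in excitatory neurons of the forebrain. WT mice carried no transgene, and no floxed allele is named for either genotype. Both were C57BL/6J mice aged 9 weeks, with 4 libraries of poly(A) RNA from whole hippocampal tissue each, so that interneurons are a minor part of the sampled cells. The labels do not say whether the 4 libraries of a genotype came from separate animals, so the spread behind each p-value is that of these samples and may be technical.

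GABA, the main inhibitory transmitter of the forebrain, is made from glutamate by a pair of glutamate decarboxylases and is pumped into vesicles by the transporter that Slc32a1 encodes. Hippocampal interneurons arise in the ventral forebrain of the embryo, where Dlx genes set the GABAergic fate, and then migrate into the hippocampus. Lhx6 acts after the Dlx genes in the cells that become parvalbumin and somatostatin interneurons, and Satb1 acts after Lhx6 in their maturation. Principal neurons of the hippocampus, in which the Camk2a promoter is active, release glutamate. How much of each member's transcript they hold cannot be told from whole tissue.

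The libraries held 23358289 to 30882631 counts, and the members 81 to 9956 counts in a library. Markers of the labelled tissue were present in T29-1 Cre and WT libraries alike. Slc17a7, the vesicular glutamate transporter of principal neurons, was at 1703 ± 136 CPM (library-scaled counts, TMM) in T29-1 Cre and 1734 ± 99.2 CPM in WT (SD, n = 4 each). Prox1, a factor of dentate granule cells, was at 121 ± 14.7 CPM in T29-1 Cre and 118 ± 14.6 CPM in WT (SD, n = 4 each). WT replicate 4 stood apart: its score on the leading principal component (26.1% of the variance of log2 CPM) was -33.4, and the other 7 libraries scored -0.69 to 8.74. Values without this library are given for some members and gene lists. Other values, those of single genes outside the members among them, include it and may rest on it.

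None of the 8 genes differed between the genotypes past the threshold. At a Benjamini-Hochberg adjusted p under 0.05 in edgeR's quasi-likelihood test, 0 of the 8 were called, where 0.00625% of all 15996 tested genes were called (1 gene, St6gal2). Satb1 alone had an unadjusted p under 0.05. Such a p was found for 2.43% of all genes in edgeR (1.27% with a higher value in T29-1 Cre), and the count of members was 1 also with DESeq2 (1.66% of all genes) and limma-voom (2.41%), which called 0 members too. T29-1 Cre and WT libraries overlapped for each of the 8 genes, and libraries did not overlap for 1.81% of all tested genes. The fitted value was higher in T29-1 Cre for 7 of the 8, all but Lhx6, where 49.7% of all tested genes were higher. Without WT replicate 4 it was higher for 7 of the 8 too. The members' median log2 fold change was 0.08 and that of all tested genes 0.00. In bulk tissue, fewer cells of a type and less RNA per cell cannot be told apart.

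**Figure D1:**
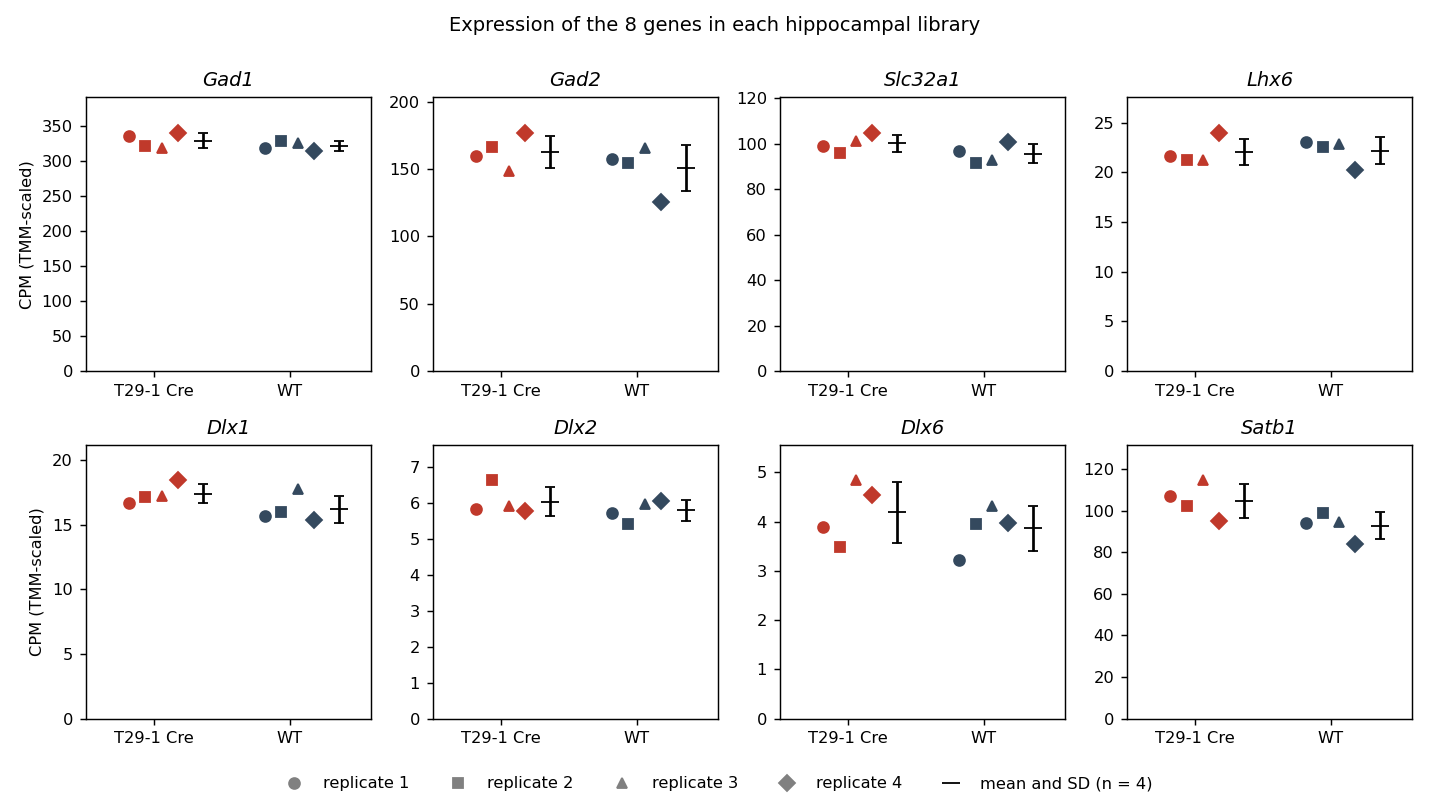
Expression of the 8 genes as TMM-scaled CPM (vertical axes, each from 0) in T29-1 Cre (left) and WT (right); marker shapes give the replicate number, and the black bar is the mean with its SD over 4 libraries. The libraries of the genotypes overlap in every panel, Satb1 shows the widest gap between means relative to its spread, and WT replicate 4 is the lowest library for Gad2 at 125.7 CPM.

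The levels of the 8 genes, compared per length of their merged exons, formed a higher group of GABA genes and a lower group of nuclear factors. Gad1 was at 43.0 ± 1.39 CPM per kb in T29-1 Cre and 42.1 ± 0.90 CPM per kb in WT (SD, n = 4 each). Slc32a1 was at 35.8 ± 1.34 CPM per kb in T29-1 Cre and 34.2 ± 1.51 in WT, and Gad2 at 27.7 ± 2.04 CPM per kb in T29-1 Cre and 25.7 ± 2.95 in WT. The nuclear factors followed with ranges over all 8 libraries of 4.41 to 6.02 CPM per kb for Satb1, 4.21 to 4.99 for Lhx6, 2.85 to 3.41 for Dlx1, 1.89 to 2.32 for Dlx2 and 1.35 to 2.04 for Dlx6. This order was the same in all 8 libraries, and the mean levels spanned 25.1-fold from Dlx6 to Gad1. The ranges of Satb1 and Lhx6 overlapped, as did those of Dlx2 and Dlx6, whereas the ranges of the other neighbours in the order did not. The merged exons of Satb1 sum to 19027 bases over 14 annotated transcripts, and those of Gad1 to 7639 bases over 8. Per length of the longest annotated transcript the order was the same and the span was 49.7-fold. Over all libraries Gad1 was then at 90.2, Gad2 at 27.3, Satb1 at 15.8 and Lhx6 at 6.35 CPM per kb. Gad2 and Satb1 were thus closer than per length of merged exons, where their means were 26.7 and 5.19 CPM per kb. With no division by length, Satb1 (mean 98.8 CPM) was above Slc32a1 (mean 97.9 CPM). The split into a higher and a lower group therefore depends on the length used.

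Gad1 encodes the glutamate decarboxylase that supplies most of the GABA of the brain. The gene (ENSMUSG00000070880.10) spans bases 70553072 to 70602014 of chromosome 2 in GRCm38, on the plus strand. Its level was 335, 321, 318 and 339.8 CPM in T29-1 Cre replicates 1 to 4, against 318, 329, 325 and 313 CPM in WT replicates 1 to 4. The WT values lay within or just below the span of the T29-1 Cre values, with T29-1 Cre replicates 1 and 4 above every WT library. The fitted difference was 0.03 on the log2 scale (SE 0.0437, edgeR adjusted p = 0.998), and its 95% interval ran from 0.958-fold to 1.09-fold. Permuting the genotype over the 8 libraries in all 70 ways (exact test of log2 CPM, two-sided) gave p = 0.314, and the smallest p this design allows is 0.0286. Gad1 had the narrowest interval of the 8 genes.

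Gad2 encodes the second glutamate decarboxylase, which is found mostly at nerve terminals. The gene (ENSMUSG00000026787.3) spans bases 22622205 to 22693874 of the same strand and chromosome. Its level was 159.7, 166, 148 and 177 CPM in T29-1 Cre, against 157, 155, 165 and 126 CPM in WT. WT replicate 4 was the lowest library, and the other WT libraries lay inside the span of the T29-1 Cre libraries. The difference was 0.11 (SE 0.0781, adjusted p = 0.998; 95% interval 0.96-fold to 1.21-fold; exact permutation p = 0.314). Without WT replicate 4 it was 0.03. WT replicate 4 was also low in the ratio of Gad2 to Gad1 counts, at 0.401, where the other 7 libraries ran from 0.466 to 0.521. The mean ratio was 0.495 ± 0.0282 in T29-1 Cre and 0.469 ± 0.0477 in WT (SD, n = 4 each; exact permutation p = 0.429).

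Slc32a1 encodes the vesicular inhibitory amino acid transporter, which fills synaptic vesicles with GABA or glycine. The gene (ENSMUSG00000037771.11) spans bases 158610767 to 158615748 of chromosome 2, on the plus strand. Its level was 99.0, 95.8, 101 and 104.7 CPM in T29-1 Cre, against 97.0, 91.5, 92.9 and 101 CPM in WT. All 4 T29-1 Cre libraries lay above the WT median, yet WT replicates 1 and 4 reached into their span. The difference was 0.07 (SE 0.0498, adjusted p = 0.998; 95% interval 0.974-fold to 1.13-fold; exact permutation p = 0.171). Without WT replicate 4, the highest WT library for this gene, it was 0.10, with an unadjusted p of 0.0375 and an adjusted p of 1.00. Of its exonic bases, 24.9% overlap the antisense gene Gm14205, which held 16 counts over all 8 libraries.

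DNA before a transcript start of each of the 3 GABA genes is shown because these transcripts were above the nuclear factors in level per length of merged exons. Each line starts 250 bases before a RefSeq transcript start (GRCm38.p6, plus strand) and is printed up to the first exon base that GENCODE annotates within those 250 bases, 5′ to 3′ in lower case, with capitals for matches to 4 searched motifs (the homeodomain core TAATTA, the TATA box TATAAA, the E-box CAGCTG and the CCAAT box, on either strand). The stretches are chr2:70561879-70562041 for Gad1, chr2:22622077-22622204 for Gad2 and chr2:158610508-158610757 for Slc32a1. The Gad1 start is internal to the annotated gene, whose first exon begins at 70553072.
Gad1: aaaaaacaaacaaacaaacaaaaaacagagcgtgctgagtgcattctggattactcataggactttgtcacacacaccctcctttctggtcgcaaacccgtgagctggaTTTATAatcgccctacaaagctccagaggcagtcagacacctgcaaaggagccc
Gad2: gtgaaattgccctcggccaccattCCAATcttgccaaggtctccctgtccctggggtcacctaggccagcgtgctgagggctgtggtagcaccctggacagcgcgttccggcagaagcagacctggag
Slc32a1: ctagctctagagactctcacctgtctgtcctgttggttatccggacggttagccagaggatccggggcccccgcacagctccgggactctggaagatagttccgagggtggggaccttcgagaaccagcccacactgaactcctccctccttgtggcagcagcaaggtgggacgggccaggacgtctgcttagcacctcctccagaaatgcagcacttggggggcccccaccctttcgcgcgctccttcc
In Gad1 the capitals mark TATAAA, read on the opposite strand, a motif held by 12.4% of all 32851 such windows of RefSeq genes. In Gad2 they mark CCAAT, held by 33.85% of all windows, and the Slc32a1 window held none of the 4 motifs. Of the members, 7 had such windows, 13 in all (Dlx6 had none). The homeodomain core TAATTA, found in 4.84% of all windows, was in 0 of the 13, and CAGCTG, found in 13.0%, was in 2 of them, 1 of Lhx6 and 1 of Satb1. The GC content of the whole windows was 58.0% for Gad1, 64.0% for Gad2 and 62.4% for Slc32a1, where the median of all windows was 52.4%. Of all windows 27.9% were at 60% or more. Windows of the nuclear factors ran from 46.0% (Lhx6) to 80.8% (Satb1), with Dlx1 at 68.0% and Dlx2 at 66.4%, so these values are not particular to the GABA genes. A match of letters is a description of the window and not a bound site.

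Lhx6 encodes a LIM homeodomain factor of interneurons from the medial ganglionic eminence. The gene (ENSMUSG00000026890.19) spans bases 36081953 to 36105408 of chromosome 2, on the minus strand. Its level was 21.7, 21.2, 21.2 and 24.0 CPM in T29-1 Cre, against 23.05, 22.6, 22.9 and 20.2 CPM in WT. T29-1 Cre replicate 4 was the highest and WT replicate 4 the lowest library, and the remaining WT libraries lay above the remaining T29-1 Cre libraries. The difference was -0.01 (SE 0.0664, adjusted p = 0.998; 95% interval 0.899-fold to 1.10-fold; exact permutation p = 0.83). It was -0.05 without WT replicate 4 and -0.09 without both replicates 4, an alternative chosen after the data were seen.

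Dlx1 and Dlx2 encode distal-less homeodomain factors and lie 9.43 kb apart on opposite strands of chromosome 2. Dlx1 is on the plus strand from 71528113 to 71533981 (ENSMUSG00000041911.3), 926 kb beyond the end of Gad1. Its level was 16.7, 17.2, 17.2 and 18.4 CPM in T29-1 Cre, against 15.6, 16.0, 17.7 and 15.4 CPM in WT. WT replicate 3 lay inside the T29-1 Cre span and the other 3 WT libraries below it. The difference was 0.10 (SE 0.0688, adjusted p = 0.998; 95% interval 0.968-fold to 1.19-fold; exact permutation p = 0.114).

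Dlx2 is on the minus strand of chromosome 2 from 71543408 to 71546754 (ENSMUSG00000023391.8). Its level was 5.82, 6.62, 5.92 and 5.77 CPM in T29-1 Cre, against 5.72, 5.40, 5.97 and 6.06 CPM in WT, on 134 to 183 counts in a library. T29-1 Cre replicate 2 was above every other library, and the others were intermixed. The difference was 0.06 (SE 0.0972, adjusted p = 0.998; 95% interval 0.90-fold to 1.202-fold; exact permutation p = 0.457). Without T29-1 Cre replicate 2 it was 0.01.

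Dlx6, a distal-less relative beside Dlx5 on chromosome 6, was the lowest of the 8 genes and had the widest interval. It is on the plus strand from 6863334 to 6868568 (ENSMUSG00000029754.13). Its level was 3.89, 3.48, 4.84 and 4.54 CPM in T29-1 Cre, against 3.22, 3.95, 4.31 and 3.97 CPM in WT, on 81 to 134 counts in a library. T29-1 Cre replicates 3 and 4 were the highest libraries and WT replicate 1 the lowest. The difference was 0.12 (SE 0.138, adjusted p = 0.998; 95% interval 0.884-fold to 1.33-fold; exact permutation p = 0.486). Without WT replicate 1 it was 0.04, and without T29-1 Cre replicate 2 it was 0.19.

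Satb1, a chromatin organiser that binds AT-rich DNA, had the largest difference of the 8 genes and was the only one whose 95% interval left out 1. The gene (ENSMUSG00000023927.15) spans bases 51736187 to 51833290 of chromosome 17, on the minus strand. Its level was 107, 102, 115 and 95.2 CPM in T29-1 Cre, against 94.0, 98.9, 94.6 and 83.9 CPM in WT. T29-1 Cre replicates 1, 2 and 3 lay above every WT library, while T29-1 Cre replicate 4 lay below WT replicate 2. The difference was 0.17 (SE 0.0648, unadjusted p = 0.0178, adjusted p = 0.998), a 1.13-fold value with an interval of 1.02-fold to 1.24-fold. Of all tested genes 0.606% had a smaller p, and the exact permutation test gave p = 0.0571. Without WT replicate 4 the difference was 0.13, and without T29-1 Cre replicate 3 it was 0.13 with an unadjusted p of 0.0757. St6gal2, the 1 called gene, lies 3612 kb from Satb1 on the same chromosome. Of the 7 tested genes between them edgeR called 0, with 0 at an unadjusted p under 0.05 and 1 with a higher value. Over all tested genes 2.43% had such a p and 49.7% were higher. The 7 genes are too few to set against these shares, and their SE ran from 0.0479 to 0.38.

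**Figure D2:**
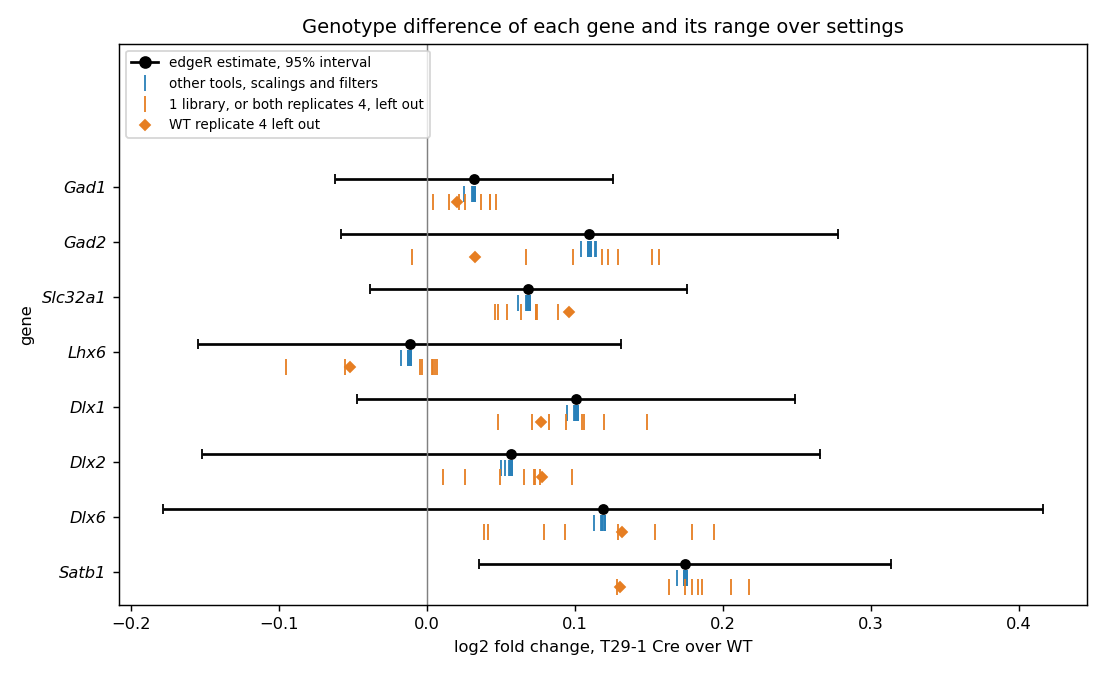
Log2 fold change of T29-1 Cre over WT (horizontal axis) for the 8 genes (rows), with the edgeR estimate and its 95% interval in black, estimates of other tools, scalings and filters in blue, and those with libraries left out in orange. Estimates with libraries left out spread further than those of other tools, from -0.01 to 0.16 for Gad2 and from 0.13 to 0.22 for Satb1, and the orange diamond marks WT replicate 4 left out.

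Satb1 is also expressed by neurons of the neocortex, which borders the hippocampal formation, and markers of neocortical and subicular neurons followed a like order over the libraries. Of 10 such markers, 10 were higher in T29-1 Cre by a median log2 difference of 0.09, 9 without WT replicate 4, and edgeR called 0, with 1 at an unadjusted p under 0.05 (Cux2, 0.15, SE 0.0701). Of all tested genes 49.7% were higher and 2.43% had such a p. The summed level of the 10 markers was 552 to 649.8 CPM in T29-1 Cre and 545 to 604 CPM in WT. None of the markers was at 0. The median deviation of the markers from their means over the 8 libraries was 0.07, 0.06, 0.12 and -0.08 in T29-1 Cre replicates 1 to 4, and -0.05, 0.01, -0.06 and -0.14 in WT replicates 1 to 4. Satb1 deviated by 0.12, 0.06, 0.22 and -0.05 in T29-1 Cre and by -0.07, 0.01, -0.06 and -0.23 in WT. In both, T29-1 Cre replicate 3 was highest and WT replicate 4 lowest. The part of these regions in the Satb1 value was not tested.

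The libraries with the highest values were not the same for all members. T29-1 Cre replicate 4 was the highest library for Gad1, Gad2, Slc32a1, Lhx6 and Dlx1, whereas it was the lowest T29-1 Cre library for Satb1. WT replicate 4 was the lowest library for 5 of the 8 members, namely Gad1, Gad2, Lhx6, Dlx1 and Satb1. With both replicates 4 left out, an alternative chosen after the data were seen, the log2 differences of Gad1, Gad2 and Dlx1 were 0.00, -0.01 and 0.05. That of Satb1 was 0.17, and 6 of the 8 were higher in T29-1 Cre. For Gad1, Gad2 and Dlx1 these libraries were the highest and the lowest, so leaving them out had to lower the differences. For Satb1 each was the lowest of its genotype, so the contrast with Satb1 follows from the choice of libraries. The sum of all 8 was 731 to 769 CPM in T29-1 Cre libraries and 669 to 729 CPM in WT libraries. The gap is narrow, from 728.75 CPM in WT replicate 3 to 731.45 CPM in T29-1 Cre replicate 3. WT replicate 4 had the lowest sum. Gad1 and Gad2 make up most of the sum, and its difference was not tested.

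**Figure D3:**
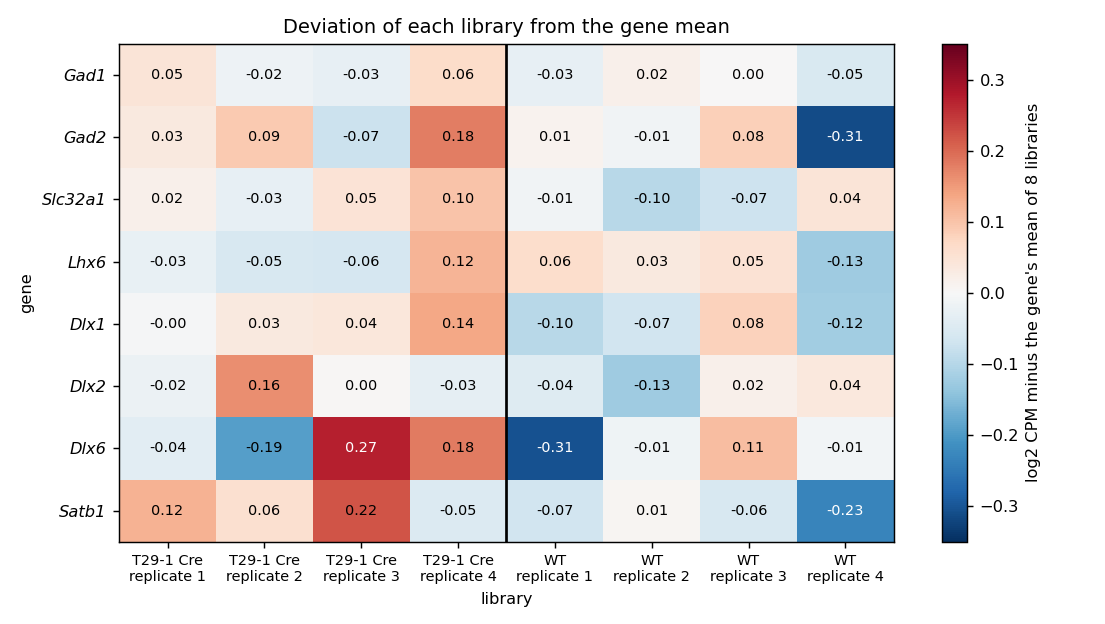
Deviation of log2 CPM from each gene's mean over the 8 libraries, for the 8 genes (rows) in 4 T29-1 Cre libraries (left of the line) and 4 WT libraries (right of it); red is above and blue below the mean. T29-1 Cre replicate 4 is positive for Gad1, Gad2, Slc32a1, Lhx6, Dlx1 and Dlx6, and WT replicate 4 is at -0.31 for Gad2 and -0.23 for Satb1.

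The values of WT replicate 4 split by transcript length. For Dlx6, Dlx2 and Slc32a1, whose longest annotated transcripts are 2216 to 2797 bases long, WT replicate 4 lay above the mean of the other WT libraries, by 0.06, 0.09 and 0.11 on the log2 scale. For the 5 members with transcripts of 3481 to 6243 bases it lay below, with Gad1 at -0.05 and Dlx1 at -0.09, Lhx6 at -0.17, Satb1 at -0.19 and Gad2 at -0.34. Within these 5 the values did not follow length, as Lhx6 (3481 bases) lay lower than Gad1 (3601 bases) and Dlx1 (4111 bases). Gad2 and Satb1 also had the lowest GC content, at 44.1% and 44.8%, and Slc32a1 the highest, at 61.9%. The members share this library, and the part of length or base composition in the genotype values was not tested.

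**Figure D4:**
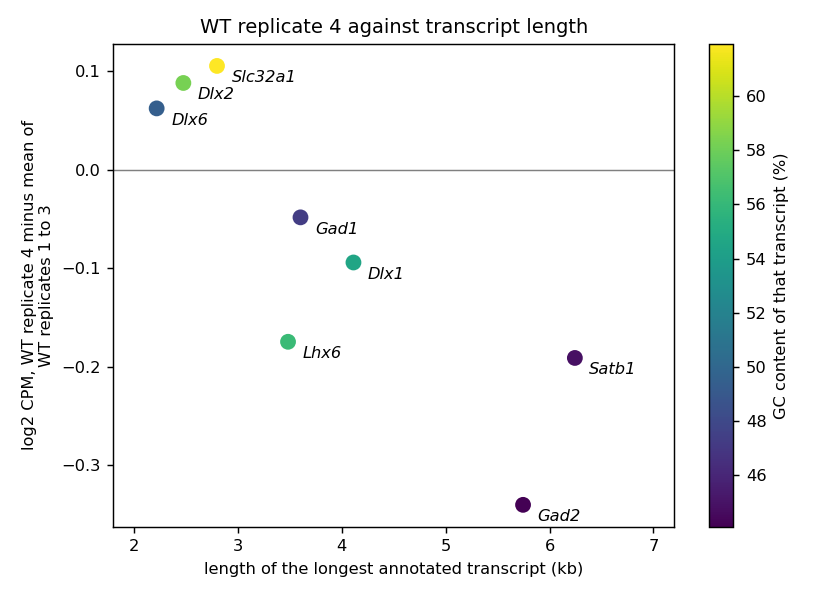
Log2 CPM of WT replicate 4 minus the mean of WT replicates 1 to 3 (vertical axis) against the length of the longest annotated transcript in kb (horizontal axis) for the 8 genes, with colour for the GC content of that transcript. The 3 genes under 3 kb lie above 0 and the 5 longer ones below it.

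The members were compared with each other across the 8 libraries in 8 pairs. Gad1 and Gad2 had a Pearson r of 0.71 (exact permutation p = 0.0396, 0.316 after adjustment over the 8 pairs) and a Spearman rho of 0.714 (exact permutation p = 0.0576, adjusted 0.332). Without T29-1 Cre replicates 4 and 1, the 2 libraries farthest from the Gad1 median, r was 0.68. That value still holds WT replicate 4, the lowest library for both genes, so it cannot show whether the relation rests on that library. Dlx1 and Dlx6 had an r of 0.582 and a rho of 0.595 (exact permutation p = 0.132 for each, adjusted 0.352 and 0.353), and r was 0.615 without 2 libraries. Lhx6 and Gad1 had an r of 0.647 and a rho of 0.667 (exact permutation p = 0.0875 and 0.0831, adjusted 0.35 and 0.332), but r was 0.0464 without the replicates 4 of both genotypes, so that this relation rests on them. The other 5 pairs (Gad1 and Gad2 each with Slc32a1, Dlx2 with Dlx1 and with Dlx6, and Lhx6 with Satb1) had r of -0.171 to 0.217 and adjusted p of 0.935 or more. These values depended on few libraries as well: without the 2 libraries farthest from the median, r was -0.93 for Gad1 with Slc32a1, -0.877 for Lhx6 with Satb1, -0.452 for Gad2 with Slc32a1, 0.397 for Dlx2 with Dlx6 and 0.616 for Dlx1 with Dlx2. No pair passed the adjustment.

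Antisense transcripts overlap 2 of the Dlx genes in this table. Dlx1as, a non-coding RNA on the strand opposite to Dlx1, was at 7.48, 8.21, 6.46 and 8.59 CPM in T29-1 Cre, against 8.12, 9.44, 8.81 and 7.61 CPM in WT, a difference of -0.15 (SE 0.108, adjusted p = 0.998). Its exons share 335 bases with those of Dlx1, which is 6.21% of the exons of Dlx1. The strand setting of the authors' counting is not given in the sources used here, and without it reads of shared bases cannot be assigned. The ratio of Dlx1as to Dlx1 counts was 0.448, 0.479, 0.375 and 0.466 in T29-1 Cre, against 0.519, 0.591, 0.497 and 0.495 in WT. All 4 T29-1 Cre ratios lay below all 4 WT ratios, and the log2 difference was -0.25 (exact permutation p = 0.0286, the smallest it can give, and 0.286 after adjustment over the 10 ratios computed). These ratios were chosen after the values had been seen. Dlx6os1, a non-coding RNA antisense to Dlx6 with 0 shared exonic bases, was at 19.9 ± 1.58 CPM in T29-1 Cre and 20.03 ± 3.21 CPM in WT (SD, n = 4 each; log2 difference -0.01, SE 0.101, adjusted p = 0.998). Gad1os, antisense to Gad1, held 2 to 6 counts in T29-1 Cre libraries and 3 to 8 counts in WT libraries and was not tested.

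**Figure D5:**
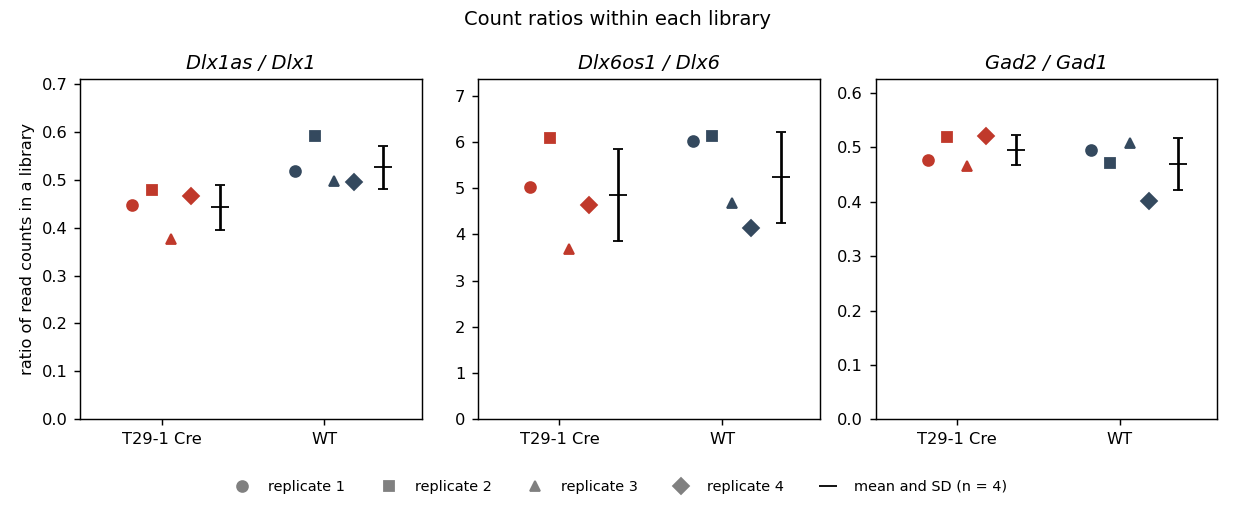
Ratios of read counts within each library (vertical axes from 0) for Dlx1as to Dlx1, Dlx6os1 to Dlx6 and Gad2 to Gad1 in T29-1 Cre (left) and WT (right); black bars are means with SD over 4 libraries. Of these 3 ratios, the genotypes do not overlap for Dlx1as to Dlx1, with means of 0.442 in T29-1 Cre and 0.525 in WT.

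Relatives of the members, of which Dlx5 and Lhx8 are also counted among the interneuron factors, were at low levels or within the spread. Dlx5, the neighbour of Dlx6, was at 4.46 ± 0.43 CPM in T29-1 Cre and 3.93 ± 1.18 CPM in WT (SD, n = 4 each; log2 difference 0.20, SE 0.176). Dlx3 held 0 counts in all 8 libraries, Dlx4 held 0 to 5 counts and Lhx8, the nearest relative of Lhx6, held 0 or 1, so these were not tested. Gadl1, a decarboxylase related to Gad1 and Gad2, was at 0.542 ± 0.161 CPM in T29-1 Cre and 0.466 ± 0.291 CPM in WT (SD, n = 4 each; 0.22, SE 0.411). Among the vesicular glutamate transporters the differences were -0.03 (SE 0.0612) for Slc17a7, 0.24 (SE 0.21) for Slc17a6 and 0.02 (SE 0.14) for Slc17a8. The adjusted p was 0.998 for each of these genes.

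Genes that carry, recycle and break down GABA were within the spread as well. Of 19 such genes, 11 had a higher and 8 a lower value in T29-1 Cre (median 0.02), and edgeR called 0, with 0 at an unadjusted p under 0.05. Of them 10 were higher, at a median of 0.00, without WT replicate 4. Those with the smallest p were Slc38a1, a glutamine carrier that feeds GABA synthesis, at 0.11 (SE 0.072), and Pdxk, the kinase that makes the cofactor of the decarboxylases, at 0.06 (SE 0.0444).

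Of 22 other transcription factors of interneurons, 20 were tested, and 15 had a higher and 5 a lower value in T29-1 Cre (median 0.07). EdgeR called 0 of them, with 3 at an unadjusted p under 0.05, all higher. Over all tested genes 49.7% were higher, and 1.27% were higher with such a p. Without WT replicate 4, 14 of the 20 factors were higher, their median was 0.05 and 2 had such a p. Nr2f2, a nuclear receptor of interneurons from the caudal ganglionic eminence, was at 49.6 ± 6.85 CPM in T29-1 Cre and 42.0 ± 5.002 CPM in WT (SD, n = 4 each; 0.24, SE 0.0975, adjusted p = 0.998). Zfhx3, named after its value was seen, had a difference of 0.24 (SE 0.107).

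Markers of interneuron classes gave 24 higher and 10 lower values among 34 tested (median 0.04), and edgeR called 0, with 1 at an unadjusted p under 0.05. Among all tested genes 49.7% were higher and 2.43% had such a p. Without WT replicate 4, 23 of the class markers were higher and their median was 0.02. Reln, the secreted glycoprotein of neurogliaform and other interneurons, was at 91.7 ± 2.497 CPM in T29-1 Cre and 82.0 ± 9.61 CPM in WT (SD, n = 4 each; 0.16, SE 0.0725, adjusted p = 0.998). Nos1, the neuronal nitric oxide synthase, was at 0.15 (SE 0.0729). Among class-defining genes, Sst was at 171 ± 13.5 CPM in T29-1 Cre and 171 ± 13.8 CPM in WT (SD, n = 4 each), with a log2 difference of 0.00 (SE 0.0671), and Pvalb, Vip and Npy were at -0.04 (SE 0.0848), 0.07 (SE 0.0974) and -0.07 (SE 0.0709).

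Markers of other cell types and of GABAergic cells of other regions were examined beside the members. Over all tested genes, 49.7% were higher in T29-1 Cre and 2.43% had an unadjusted edgeR p under 0.05. Striatal projection neurons, which are GABAergic, had 9 tested markers of 10, 5 higher and 4 lower (median 0.01), with a summed level of 238 to 246 CPM in T29-1 Cre and 222 to 248 CPM in WT. Drd1 was at 0.35 (SE 0.151) and Rgs9 at -0.13 (SE 0.0836). Thalamic and habenular markers had a median of 0.09 (6 of 7 higher, Rora 0.09, SE 0.0774; Tcf7l2 0.11, SE 0.111) and a summed level of 126 to 142 CPM in T29-1 Cre and 119 to 134 CPM in WT. Their median was 0.02, with 5 of 7 higher, without WT replicate 4. Excitatory markers had a median of -0.03 (2 of 8 higher; Nrgn -0.12, SE 0.06; Tbr1 0.13, SE 0.072). Oligodendrocyte markers had a median of -0.09 (0 of 10 higher, also without WT replicate 4; Hapln2 -0.14, Mog -0.14). Astrocyte markers had a median of -0.02 (3 of 8 higher; S100b -0.12, Fgfr3 0.17), microglial markers -0.04 (2 of 8 higher; Aif1 -0.24, P2ry12 -0.07) and endothelial markers 0.04 (Flt1 0.13, Kdr 0.20). The endothelial count was 5 of 8 higher. It was 3 of 8, with a median of -0.02, without WT replicate 4, where the microglial median was -0.02 too. Choroid plexus and ependymal markers had a median of 0.07 (5 of 7 higher; Ttr 2.39, Clic6 0.89). EdgeR called 0 markers in these 8 lists, with 1 striatal, 1 astrocyte and 2 choroid plexus or ependymal markers at an unadjusted p under 0.05, and DESeq2 and limma-voom called no gene of any list here. The part of these cells in the members' values was not tested.

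The genes whose profile over the 8 libraries was most like the members' mean profile were Pcdh11x, a protocadherin (Pearson r 0.955), E430025E21Rik (0.948) and Efna5, an ephrin ligand (0.944), out of 11495 genes whose mean was 5 CPM or more. Of these genes 30 had an r above 0.9, and with 8 libraries the highest of so many values are a description only. Pcdh11x was at 11.8 ± 1.39 CPM in T29-1 Cre and 9.27 ± 1.32 CPM in WT (SD, n = 4 each; log2 difference 0.35, SE 0.113, adjusted p = 0.998).

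Of the 8 members 6 lie on chromosome 2, which holds 8.03% of the tested genes with a position. EdgeR called 0 of the 1219 tested genes on it, 27 of which had an unadjusted p under 0.05, and their median log2 fold change was 0.00. Within 1000 kb of Gad1 there were 22 other tested genes with a median of -0.01, of which 1 had an unadjusted p under 0.05. Around the other members there were 6 to 16 such genes each, with 0 at that level. In the authors' deposited table the log2 fold changes of all 8 members had the same sign as here and differed from it by at most 0.0013. The unadjusted p in the authors' deposited table was 0.0123 for Satb1, and for the other members it ran from 0.184 for Gad2 to 0.897 for Lhx6.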

How the data were processed

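Poly(A) RNA of hippocampi was sequenced in 4 T29-1 Cre and 4 WT libraries. Per the labels' protocols, RNA was purified with Isogen II, libraries were made from 500 ng with a directional kit, and pooled on 1 lane (150 bp, paired ends). The submitters' processing notes name GRCm38, featureCounts, edgeR 3.11 and STAR 2.6.1d; neither the annotation nor the strand setting is given in the sources used here. Raw read counts per gene name were deposited. The authors also deposited a comparison table with a log2 fold change and mean log2 CPM, a signed fold change, a mean CPM and an unadjusted p-value for 17999 genes; per the file headers its model is not stated. Its fold-change column is another form of the log2 value, with a minus sign for lower genes.

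Counts were analysed in R 4.3.3 with edgeR 4.0.16 (filterByExpr at a minimum count of 10 and a total of 15, TMM, glmQLFit and glmQLFTest on genotype, Benjamini-Hochberg over 15996 genes, threshold 0.05). An SE is the log2 fold change over the root of F. Log2 CPM used a prior count of 2. Totals of 23358289 to 30882631 counts set the precision, and intervals cover the spread between libraries. Every pair of libraries within a genotype differed beyond counting noise (chi-square over its degrees of freedom 3.32 to 19.2). Positions, exon lengths and GC came from GENCODE M21 (GRCm38), promoter windows from RefSeq on GRCm38.p6, matched by symbol.

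The members and gene lists were chosen with earlier results of these data known. Named genes were the members, tested antisense partners and relatives, the genes past the threshold or else the 2 with the smallest p of each other list, and the 3 closest profiles, less some genes not reported here. The fits were repeated with DESeq2 1.42.0, limma-voom 3.58.1, robust edgeR, 3 scalings, 2 filters, a replicate block and each library left out. Scripts were tested on simulated data.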

Additional observations from a re-analysis of the deposited data

Results flagged for a closer look

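In each genotype of 4 libraries, 1 library far from its other 3 was looked for among the 8 members and 10 count ratios, which makes 36 groups. Chance gives such a library in about 1 in 20 groups. 1 group held one: Lhx6 in WT replicate 4 was at 4.34 log2 CPM, where the other WT libraries were at 4.50 to 4.53. Without that library the log2 fold change of Lhx6 was -0.05.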

How the results depend on the processing

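Members called stayed at 0 of 8 in all 18 alternatives. At an unadjusted p under 0.05 there was 1 of 8 (Satb1), with 0 of 8 without T29-1 Cre replicate 3 and 2 of 8 (Satb1 and Slc32a1) without WT replicate 4. Genes called were 2 with no filter on low counts and 2 with the replicate block (St6gal2 and Ttr in each case); the cause was not tested. In all other alternatives, each library left out included, 1 gene was called (St6gal2; the range over left-out libraries was 1 to 1). Libraries with the same replicate number showed little correlation of their deviations (-0.141, 0.126, 0.0101 and -0.0175), which cannot show whether the samples were paired. The replicate block left the log2 fold changes of the members between -0.01 for Lhx6 and 0.17 for Satb1.

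Other tools, scalings and filters kept the direction of each member, at -0.02 to -0.01 for Lhx6 and 0.17 to 0.18 for Satb1. Leaving out 1 library turned Lhx6 in 4 of 8 cases, over a range of -0.0551 to 0.00665, with values of 0.0045 without T29-1 Cre replicate 2, 0.0066 without T29-1 Cre replicate 3, 0.0055 without WT replicate 1 and 0.0034 without WT replicate 3. Gad2 turned to -0.0099 with T29-1 Cre replicate 4 and WT replicate 4 both left out, an alternative chosen after seeing the data. The cause was not tested. Over all alternatives the smallest adjusted p of any member was 0.892. Satb1 had an unadjusted p of 0.00207 to 0.0757, above 0.05 without T29-1 Cre replicate 3. The lowest came from edgeR with both replicates 4 left out, the alternative chosen after seeing the data. The next was 0.00498, from edgeR without T29-1 Cre replicate 4. Exact permutation p-values did not move with a prior count of 0.5. Counts of 81 to 183 limit Dlx2 and Dlx6, whose intervals reach 1.202-fold and 1.33-fold.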
